A study of Rattus norvegicus with 6 samples.

Results

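The S100 proteins are small calcium-binding proteins, and 10 of their genes were followed here in rat dorsal root ganglia (DRG). S100b was labelled glial, S100a10 neuronal, and S100a8 and S100a9 myeloid. S100a4 was assigned to myeloid cells and fibroblasts, and S100a1, S100a6, S100a11, S100a13 and S100a16 were taken as widely expressed. These labels do not exclude expression in other cells and were not tested in these data. A gene was taken from the transcript clusters of the array that carry its symbol and no other, and the cluster with the highest mean over the 6 arrays stood for it. Of these 10 genes 9 were measured, among 13215 genes with such a cluster and 19418 clusters in all. S100a11 had no cluster under its symbol and was not analysed here. Spinal nerve transection (SNT) is a model of neuropathic pain in which the nerve leaving the fifth lumbar (L5) ganglion is cut. The SNT group consisted of 3 arrays with L5 DRG of male Wistar rats 7 days after surgery, and the naive group of 3 arrays with L5 DRG of naive male Wistar rats. Each array held polyadenylated RNA of 4 distinct animals pooled together, giving 12 rats per group. The controls had no sham operation, and effects of the surgery and of the nerve cut therefore cannot be told apart.

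S100 proteins carry paired EF-hand motifs, loops that bind calcium, and usually work as dimers that expose a binding face for a target protein once calcium is bound. Inside the cell they act on the cytoskeleton, on annexins at membranes and on calcium stores. Outside it several of them act as alarm signals through the receptor RAGE (gene Ager) and Toll-like receptor 4 (Tlr4). In peripheral ganglia S100B is a standard marker of Schwann cells and of the satellite glia that wrap neuronal cell bodies, whereas S100A8 and S100A9 together form calprotectin, a major cytosolic protein of neutrophils and blood monocytes.

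Values are on a log2 scale, on which a difference of 1 is a doubling, and each log2 fold change is SNT minus naive ± its standard error with n = 3 arrays per group. Atf3, a transcription factor induced by axon injury, served as a check of the labels and stood at 11.36, 11.52 and 11.63 in SNT replicates 1 to 3, against 7.74, 7.69 and 7.74 in naive replicates 1 to 3. The neurofilament gene Nefl, a marker of sensory neurons, gave 12.52, 11.86 and 11.94 in SNT and 13.03, 13.04 and 13.01 in naive ganglia, so that neuronal RNA was present in both groups. Array medians were 6.18 to 6.31 for SNT and 6.11 to 6.16 for naive arrays. SNT replicate 1 stood apart: across clusters it correlated at r = 0.982 with the other SNT arrays and at 0.978 to 0.981 with naive arrays, whereas the correlation between SNT replicates 2 and 3 was 0.990. Results are therefore also given without it. At a false discovery rate (FDR) of 0.1 the share of calls that were higher in SNT was 54.0%, and 35.5% once every array was centred on its median.

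Log2 fold changes in the family ran from -0.98 to 0.90. S100a4 was higher in SNT ganglia, S100a1, S100a13 and S100b were lower, and S100a6, S100a8, S100a9, S100a10 and S100a16 did not pass FDR 0.1. Thus 1 of 9 genes was called higher, where 17.3% of all clusters were, and 3 of 9 were called lower, where 14.8% of all clusters were. The SNT arrays lay entirely above the naive arrays for 1 gene and entirely below them for 5, while groups failed to overlap for 44.5% of all clusters. Over the 13215 genes with a cluster of their own, chosen as the members were, 19.9% were called higher, 18.3% were called lower and 51.6% did not overlap. The counts of marker and partner genes below are to be read beside these shares. The median log2 fold change of the 9 genes was -0.41, against 0.07 over all genes. Without SNT replicate 1 the counts were again 1 higher and 3 lower. For 7 of the 9 genes SNT replicate 1 held the lowest of the 3 SNT values.

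**Figure D1:**
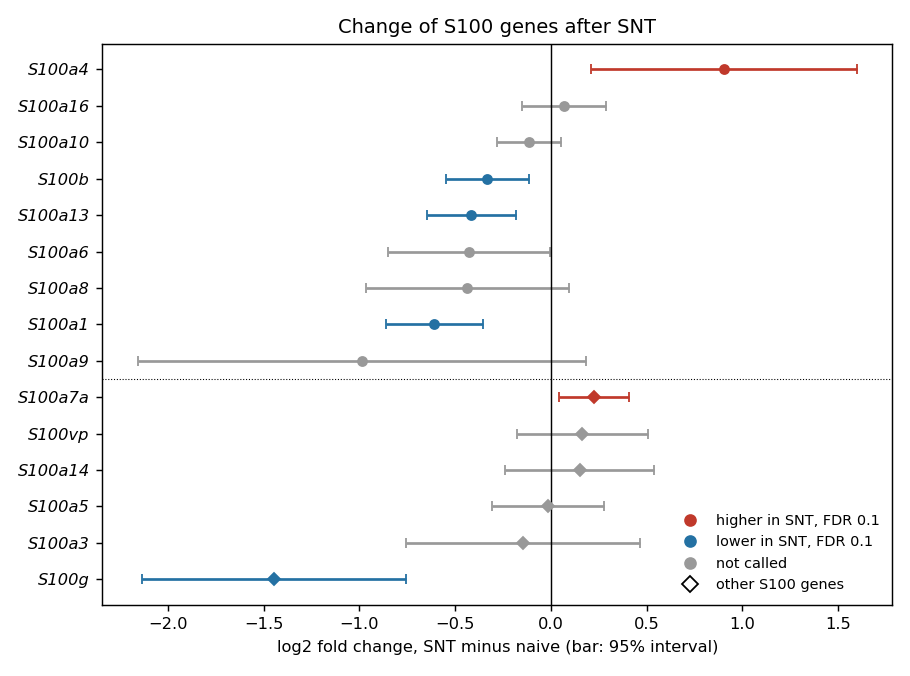
Log2 fold change of the S100 genes (SNT minus naive; points with 95% interval), the 9 measured genes described here above the dotted line and the other S100 genes on the array below it; colour marks the call at FDR 0.1. S100a4 is the only gene above the dotted line whose interval lies above 0 (0.21 to 1.60), and S100a9 has the widest interval (-2.15 to 0.19).

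S100b, the glial member, was lower after SNT. Its values were 11.60, 11.82 and 11.83 on the SNT arrays, against 12.12, 12.02 and 12.10 on the naive arrays. Each SNT value lay below each naive value, and SNT replicate 1 was the lowest. The log2 fold change was -0.33 ± 0.09 (0.794-fold, 95% interval -0.55 to -0.12, adjusted p = 0.0415), and -0.26 without SNT replicate 1 (adjusted p = 0.0416). The call was lost with cyclic loess normalisation (-0.16, adjusted p = 0.266), without naive replicate 1 (adjusted p = 0.148), without naive replicate 3 (adjusted p = 0.128) and with the replicate number as a block (adjusted p = 0.107).

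Other glial genes did not share 1 direction. Of 6 pan-glial markers 3 rose and 1 fell (median 0.42): Gfap, an intermediate filament of reactive glia, rose by 1.93 ± 0.19 (adjusted p = 0.00391), the glial transcription factor Sox10 by 0.66 ± 0.09 (adjusted p = 0.00694) and the neuregulin receptor Erbb3 by 0.73 ± 0.11 (adjusted p = 0.00836), while the neurotrophin receptor Ngfr fell by 0.40 (adjusted p = 0.0216). Of 6 satellite glia markers 2 rose and 2 fell (median -0.03). The fatty acid-binding protein Fabp7 fell by 1.25 (adjusted p = 0.0160) and the potassium channel Kcnj10 fell by 0.20 (adjusted p = 0.0894), whereas the gap junction protein Gja1 rose by 0.43 (adjusted p = 0.0273) and Apoe, a lipid carrier, by 0.29 (adjusted p = 0.0985). Of 7 myelinating Schwann cell markers 3 rose and 0 fell (median 0.29), namely the myelin-associated glycoprotein Mag (0.76), the transcription factor Egr2 (1.02) and Cnp (0.54), with a summed level of 14.16 to 14.34 in SNT and 14.05 to 14.34 in naive ganglia. The summed level of the satellite glia list was 13.25 to 13.50 in SNT and 13.24 to 13.29 in naive ganglia, and that of the pan-glial list 12.69 to 12.79 in SNT and 12.52 to 12.61 in naive ganglia (log2 of the sum of linear values). In bulk tissue, fewer cells of a type and less RNA per cell cannot be told apart, and the part of cell numbers in the S100b value was not tested.

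S100a10 (p11) does not itself need calcium, binds annexin A2 (Anxa2) and in sensory neurons helps to carry the sodium channel Nav1.8 (Scn10a) to the cell surface. It gave 12.52, 12.58 and 12.59 in SNT ganglia, against 12.68, 12.66 and 12.69 in naive ganglia. Although the 3 SNT arrays lay below the 3 naive arrays, the gap was small, with a log2 fold change of -0.11 ± 0.07 (95% interval -0.28 to 0.05, adjusted p = 0.286). Without SNT replicate 1 it was -0.09 (adjusted p = 0.358), and cyclic loess turned its sign (0.08, adjusted p = 0.477). Over the same arrays 6 of 9 sensory neuron markers fell and 0 rose (median -0.69). They included the neurofilament genes Nefh (-1.33 ± 0.23, adjusted p = 0.0105), Nefl (-0.92 ± 0.17, adjusted p = 0.0131) and Nefm (-0.996 ± 0.20, adjusted p = 0.0158) and the transcription factor Isl1 (-1.62 ± 0.29, adjusted p = 0.0119), and the summed level of the list was 14.63 to 15.07 in SNT and 15.40 to 15.44 in naive ganglia. Not called on this list were Uchl1 (-0.27, adjusted p = 0.10045), Prph (-0.23, adjusted p = 0.153) and Tubb3 (0.04, adjusted p = 0.792). The part of sensory neurons in the S100a10 value was not tested.

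Among 9 measured genes whose proteins S100A10 binds or carries, with annexin A2 listed apart, 3 fell and 1 rose. Over all 13215 genes 18.3% were called lower and 19.9% higher. Scn10a gave 9.03, 6.45 and 6.36 in SNT ganglia, against 10.07, 10.16 and 9.85 in naive ganglia. SNT replicate 1 stood between the other SNT arrays and the naive arrays, yet below every naive array. Its change was -2.75 ± 0.68 (adjusted p = 0.0295), and -3.62 without SNT replicate 1 (adjusted p = 9.92e-05). Asic1, an acid-sensing ion channel, fell by 1.23 (adjusted p = 0.0279) and the serotonin receptor Htr4 fell by 0.54 (adjusted p = 0.0930). Htr4 passed FDR 0.1 under 7 of 15 alternative settings. Plat, the tissue plasminogen activator, rose by 0.81 ± 0.14 (adjusted p = 0.0109). The serotonin receptor Htr1b (-0.34), the potassium channel Kcnk3 (-0.14), the calcium channels Trpv5 (0.17) and Trpv6 (0.15) and the helicase-like factor Hltf (0.11, or -0.011 with cyclic loess and -0.0057 with quantile normalisation) were not called. Without SNT replicate 1 Htr1b (-0.48, adjusted p = 0.0134) and Kcnk3 (-0.26, adjusted p = 0.0710) passed. Ahnak, a scaffold of the S100A10 and annexin A2 complex, was not measured. The sensory neuron markers above had a median of -0.69, and the part of sensory neurons in this group's values was not tested.

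S100a8 and S100a9, the calprotectin genes, were not called, and naive replicate 3 set most of their difference. S100a9 gave 6.38, 6.63 and 6.74 in SNT ganglia, against 6.64, 7.29 and 8.76 in naive ganglia. The SNT arrays were close together and overlapped naive replicate 1, while naive replicate 3 lay far above every other array. This gave a log2 fold change of -0.98 ± 0.49 (95% interval -2.15 to 0.19, adjusted p = 0.197). Without naive replicate 3 it was -0.39 (adjusted p = 0.297), without naive replicate 1 it was -1.45 and passed FDR 0.1 (adjusted p = 0.0852), and without SNT replicate 1 it was -0.88 (adjusted p = 0.323).

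S100a8 gave 3.85, 4.20 and 4.11 in SNT ganglia, against 4.25, 4.22 and 5.0 in naive ganglia. Again naive replicate 3 was the highest array, and the other naive arrays lay only just above SNT replicate 2. S100a8 thus changed by -0.44 ± 0.22 (95% interval -0.97 to 0.10, adjusted p = 0.207), -0.18 without naive replicate 3 (adjusted p = 0.418) and -0.33 without SNT replicate 1 (adjusted p = 0.376). The S100a8 cluster is dim, below the lower quartile of all clusters by its mean, and part of such a value may be nonspecific signal.

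Most neutrophil markers and both measured erythroid markers, of 7 listed, were highest on naive replicate 3, as S100a8 and S100a9 were. Of 12 measured neutrophil markers 8 had their highest value of the 6 arrays there. The share of all genes that were highest on naive replicate 3 was not counted. The collagenase Mmp8, not called (1.10 ± 0.57, adjusted p = 0.209), was highest on SNT replicate 2 instead, with 7.53, 9.13 and 7.81 in SNT ganglia, against 6.19, 6.91 and 8.06 in naive ganglia. Ngp, a neutrophil granule protein, gave 5.89, 5.74 and 5.33 in SNT ganglia, against 5.76, 6.83 and 8.29 in naive ganglia. The defensin Defa5 reached 7.25 and the cathelicidin Camp 6.25 on naive replicate 3, where the red cell anion exchanger Slc4a1 stood at 8.40. Whether the Defa5 signal came from neutrophils was not tested. The summed level of the neutrophil list was 10.04, 10.56 and 10.12 in SNT ganglia, against 9.68, 10.03 and 10.89 in naive ganglia, and that of the erythroid pair Slc4a1 and Epb42 was 7.25 to 7.87 in SNT and 7.71 to 8.57 in naive ganglia. Of the neutrophil list only the growth factor receptor Csf3r passed FDR 0.1 (0.65 ± 0.10, adjusted p = 0.00775), and the list's median was -0.10. Lcn2 (-0.46) and Fpr1 (-0.74) did not pass, and neither did Slc4a1 (-0.60) and Epb42 (-0.23). Of 5 blood monocyte markers 3 rose (median 0.97), namely Cd44 (0.97), Ccr2 (0.97) and Vcan (1.57). Plac8 (0.55, adjusted p = 0.133) and Fcnb (0.03, adjusted p = 0.949) were not called. Whether these genes mark only blood monocytes was not tested. The summed level of this list was 10.67 to 11.19 in SNT and 10.03 to 10.41 in naive ganglia. Among these 5 genes 3 were highest on SNT replicate 2 and 1 on naive replicate 3. Within the naive group, naive replicate 3 was also highest for the summed level of a macrophage list (11.96, 11.81 and 12.28 on naive replicates 1 to 3). The same held for S100a4, so that a high naive replicate 3 was not particular to neutrophil and red cell genes. The part of blood cells in the S100a8 and S100a9 values was not tested.

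**Figure D2:**
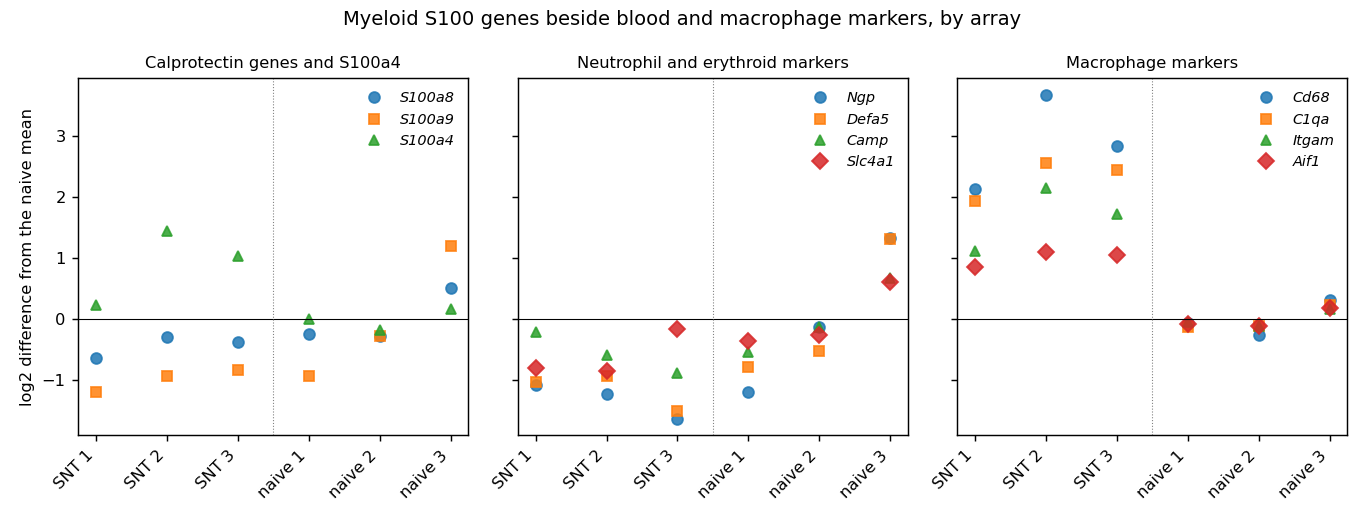
Log2 difference from the naive mean on each of the 6 arrays (SNT replicates left of the dotted line, naive replicates right of it). Drawn are S100a8, S100a9 and S100a4, the neutrophil and erythroid markers Ngp, Defa5, Camp and Slc4a1, and the macrophage markers Cd68, C1qa, Itgam and Aif1. The markers are a selected part of their lists, some chosen after their values were seen. Whether each marks only its cell type was not tested. Of 12 neutrophil markers 8 were highest on naive replicate 3, whereas Mmp8, Csf3r, Mmp9 and Ltf, not drawn, were highest on SNT arrays. S100a9 reaches 1.20 on naive replicate 3, where Ngp reaches 1.33 and Defa5 1.31, while S100a4 and Cd68 are highest on SNT replicate 2 (1.45 and 3.67).

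S100a4, found in macrophages and fibroblasts and known to bind non-muscle myosin heavy chain (Myh9), was the only member called higher in SNT ganglia. Its values were 9.51, 10.73 and 10.31 in SNT, against 9.28, 9.11 and 9.44 in naive ganglia. Each SNT array lay above each naive array, but SNT replicate 1 exceeded the highest naive array only narrowly. S100a4 was higher by 0.90 ± 0.29 (1.87-fold, 95% interval 0.21 to 1.60, adjusted p = 0.0674). Without SNT replicate 1 it was 1.24 (adjusted p = 0.00334). The call was lost with each array centred on its median (0.82, adjusted p = 0.117) and when any other array was left out: adjusted p = 0.136 without SNT replicate 2, 0.145 without SNT replicate 3, and 0.164, 0.183 and 0.120 without naive replicates 1, 2 and 3. The study lists S100a4 in a set of pain genes that it tabulated with changes in these same samples, so that its direction here is not independent evidence.

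Macrophage markers rose, as S100a4 did. All 11 measured genes of the list rose (median 1.66), and all 11 had their highest value on SNT replicate 2, as S100a4 did. That peak was not particular to macrophage genes. Fn1 (11.36, 12.22 and 12.06 on SNT replicates 1 to 3) and Pdgfrb were highest there too, while Col3a1 and Lum were highest on SNT replicate 3. The share of all genes with such a peak was not counted. Relative to the naive mean, S100a4 stood at 0.23, 1.45 and 1.03 on SNT replicates 1 to 3 and the median macrophage marker at 1.12, 2.15 and 1.58. Among them were the complement genes C1qa (2.31 ± 0.19, adjusted p = 0.00243) and C1qb (2.46 ± 0.23, adjusted p = 0.00327), Aif1 (1.00 ± 0.11, adjusted p = 0.00468) and the chemokine receptor Cx3cr1 (1.98 ± 0.24, adjusted p = 0.00516). The summed level of the list was 13.12 to 13.82 in SNT and 11.81 to 12.28 in naive ganglia. Fibroblast markers rose in 4 of 7 cases and fell in 1 (median 0.62), with the matrix genes Fn1 (1.85), Col1a2 (0.62) and Col3a1 (0.65) higher and Thy1, which neurons also express, lower (-0.70). Their summed level was 14.21 to 14.45 in SNT and 13.99 to 14.16 in naive ganglia. Of 5 endothelial and mural markers 2 rose, Pdgfrb (0.62) and Cldn5 (0.32), with summed levels of 11.33 to 11.63 in SNT and 11.13 to 11.36 in naive ganglia. The part of these cells in the S100a4 value was not tested.

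**Figure D3:**
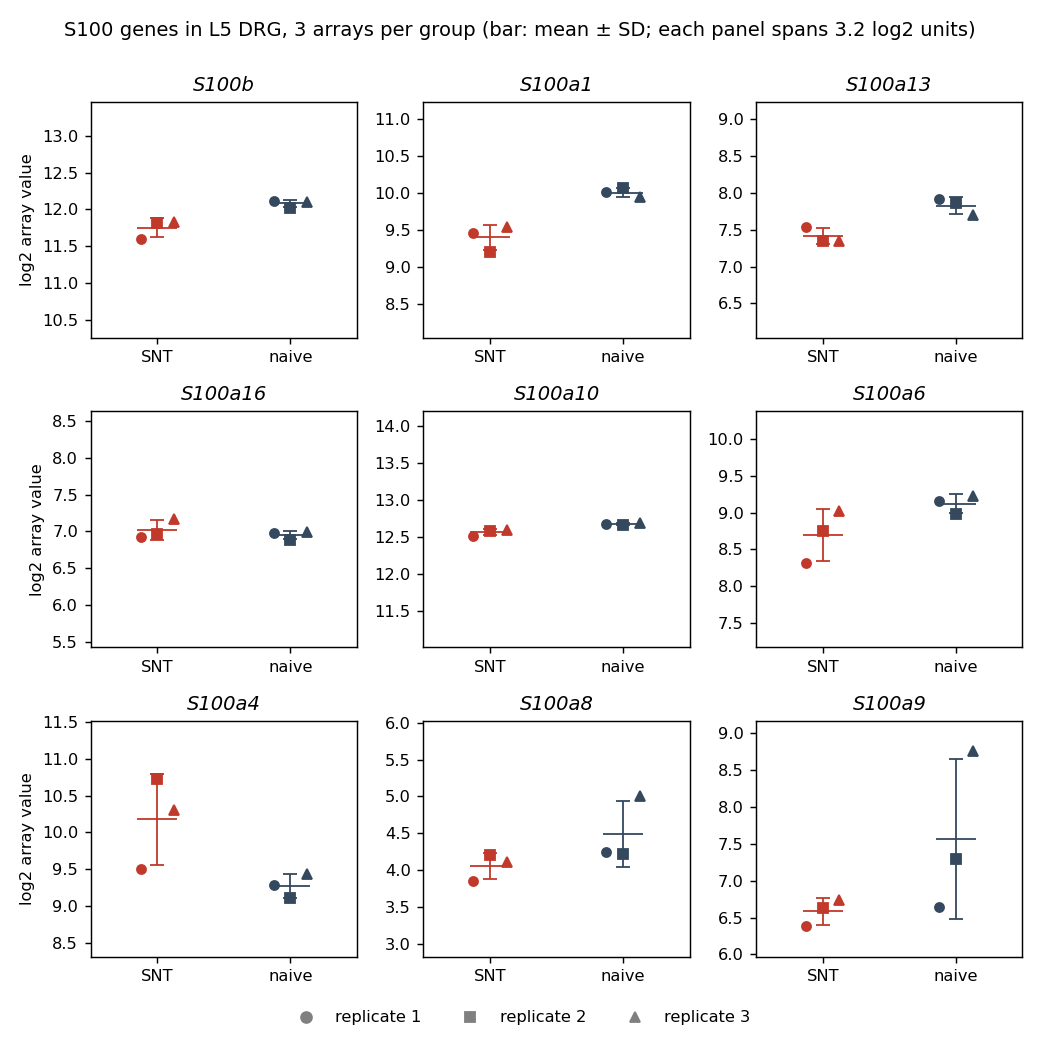
Log2 array values of the 9 measured S100 genes in SNT (left) and naive (right) L5 DRG; points are arrays, with the symbol giving the replicate number, and bars are mean ± SD (n = 3 per group). The SNT points lie entirely below the naive points for S100b, S100a1, S100a13, S100a10 and S100a8 and entirely above them for S100a4, and the widest spread is that of S100a9 in naive ganglia (SD 1.09).

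S100a1, best known from heart and skeletal muscle, where it acts on the ryanodine receptor and the calcium pump of the sarcoplasmic reticulum, had the smallest adjusted p of the family. It gave 9.45, 9.20 and 9.54 in SNT ganglia, against 10.01, 10.07 and 9.94 in naive ganglia. The groups were well apart, with 9.40 ± 0.17 in SNT and 10.01 ± 0.07 in naive ganglia (SD, n = 3 each). S100a1 changed by -0.61 ± 0.11 (0.656-fold, 95% interval -0.86 to -0.36, adjusted p = 0.0109), and -0.64 without SNT replicate 1 (adjusted p = 0.0110). It passed FDR 0.1 under all 15 alternative settings, with changes from -0.70 to -0.49. For this and every other measured member, the setting with the most variable cluster per gene could not differ from the main fit.

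S100a13 takes part in the release of FGF1 and interleukin-1 alpha, proteins that leave cells without a signal peptide. Its values were 7.54, 7.35 and 7.35 in SNT ganglia, against 7.92, 7.86 and 7.70 in naive ganglia. No SNT value reached the lowest naive value. S100a13 changed by -0.41 ± 0.10 (0.750-fold, 95% interval -0.65 to -0.18, adjusted p = 0.0257), and -0.48 without SNT replicate 1 (adjusted p = 0.0122). Of 15 alternative settings 14 kept the call, the exception being the fit without naive replicate 1 (-0.37, adjusted p = 0.108).

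S100a6 (calcyclin), a gene of proliferating cells and fibroblasts, gave 8.32, 8.75 and 9.02 in SNT ganglia, against 9.15, 8.98 and 9.23 in naive ganglia. SNT replicate 3 overlapped the naive arrays and SNT replicate 1 was far lower. The log2 fold change of -0.43 ± 0.18 did not pass (95% interval -0.85 to -0.0023, adjusted p = 0.134). It was -0.24 without SNT replicate 1 (adjusted p = 0.198) and -0.59 without SNT replicate 3, where it passed (adjusted p = 0.0530). S100a16 gave 6.92, 6.96 and 7.17 in SNT ganglia, against 6.98, 6.89 and 6.99 in naive ganglia. Here the groups overlapped, with a log2 fold change of 0.07 ± 0.09 (95% interval -0.15 to 0.29, adjusted p = 0.622), 0.12 without SNT replicate 1 (adjusted p = 0.384), -0.02 with each array centred on its median and -0.01 without SNT replicate 3.

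Whether S100b (glial), S100a10 (neuronal) and S100a9 (myeloid) changed by different amounts was tested for their 3 pairs. An exact two-sided permutation test was applied to the difference between both genes on each array, with Benjamini-Hochberg adjustment over the pairs. S100a8 and S100a4, the only member called higher (0.90), were in no pair, so that S100a9 alone stood for the myeloid members. The fold change of S100b was lower than that of S100a10 by 0.22 on the log2 scale (difference -0.22, exact p = 0.1, adjusted p = 0.3), with the SNT arrays on one side of the naive arrays. That of S100a9 differed from that of S100b by -0.65 (exact p = 0.4, adjusted p = 0.4) and from that of S100a10 by -0.87 (exact p = 0.3, adjusted p = 0.4). With 3 against 3 arrays an exact test cannot go below p = 0.1, the value reached for S100b against S100a10.

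In the RefSeq gene order of the GRCr8 rat assembly, S100a1, S100a13, S100a14, S100a16, S100a3, S100a4, S100a5, S100a6, S100a7a, S100a8 and S100a9 follow each other as 11 neighbouring protein-coding genes. S100a1 and S100a13, which both fell, are neighbours, whereas the genes on either side of S100a4, S100a3 (-0.15, adjusted p = 0.709) and S100a5 (-0.01, adjusted p = 0.941), were not called. S100a10 lies apart beside S100a11, and S100b lies alone between Dip2a (-0.05) and Prmt2 (0.11), neither of which was called. To show what lies before the start sites of called members, the 250 bases upstream of S100a4, S100a13 and S100b are given 5′ to 3′ along each gene from RefSeq (GRCr8). Of the 9 measured members 6 had an entry among 33469 promoters, which did not include S100a1, S100a8 and S100a10. Capitals mark the TATA box TATAAA, the GC box GGGCGG and the CCAAT box, each searched on both strands. A CCAAT box on the opposite strand reads ATTGG here, and these motifs were chosen after the values were seen.
S100a4, chr2:178388279-178388528, plus strand: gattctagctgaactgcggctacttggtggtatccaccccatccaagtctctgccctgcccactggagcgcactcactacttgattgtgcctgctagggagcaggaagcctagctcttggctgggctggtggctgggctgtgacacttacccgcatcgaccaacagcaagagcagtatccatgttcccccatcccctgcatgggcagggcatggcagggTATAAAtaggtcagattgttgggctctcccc
S100a13, chr2:178296770-178297019, plus strand: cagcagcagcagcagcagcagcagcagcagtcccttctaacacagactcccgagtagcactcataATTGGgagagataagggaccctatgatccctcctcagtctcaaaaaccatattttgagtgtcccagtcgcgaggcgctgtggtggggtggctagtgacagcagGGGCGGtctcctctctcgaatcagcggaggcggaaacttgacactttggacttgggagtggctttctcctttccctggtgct
S100b, chr20:12381082-12381331, minus strand: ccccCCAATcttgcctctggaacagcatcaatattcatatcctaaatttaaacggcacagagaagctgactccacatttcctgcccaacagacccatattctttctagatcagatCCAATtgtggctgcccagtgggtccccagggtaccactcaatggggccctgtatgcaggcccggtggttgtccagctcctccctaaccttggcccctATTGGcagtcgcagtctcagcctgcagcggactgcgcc
The S100a4 stretch holds TATAAA 31 bases before the start. S100a13 and S100b have no TATAAA but CCAAT boxes, at 185 bases before the start in S100a13 and at 246, 135 and 38 bases in S100b. S100a13 also has a GC box at 82 bases. Of all promoters 12.93% held TATAAA, 34.02% a CCAAT box and 30.47% a GC box. Among the 6 members with an entry, TATAAA was found in S100a4 and S100a9, CCAAT in S100a13 and S100b, and the GC box in S100a13 and S100a6. The AP-1 motif TGANTCA, found in 6.34% of all promoters, and the cyclic AMP response element TGACGTCA, found in 1.587%, were in 0 of the 6. The GC content was 57.6% for S100a4, 55.6% for S100a13 and 54.8% for S100b, against a median of 51.2%. A match is a description of the sequence and not a measured binding site.

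Of 6 other S100 genes on the array 1 rose and 1 fell. S100g (calbindin-D9k), a calcium buffer of gut epithelium, gave 6.76, 5.58 and 5.95 in SNT ganglia, against 7.47, 7.40 and 7.77 in naive ganglia. All SNT values lay below all naive values, with SNT replicate 1 nearest to them, and the log2 fold change was -1.45 ± 0.29 (0.367-fold, adjusted p = 0.0156), or -1.78 without SNT replicate 1 (adjusted p = 0.00117). It passed under all 15 alternative settings. S100a7a, of the psoriasin group, gave 5.62, 5.60 and 5.68 in SNT ganglia, against 5.46, 5.44 and 5.32 in naive ganglia. This rise of 0.22 ± 0.08 (adjusted p = 0.0811) lies above the naive arrays throughout but passed under only 5 of 15 settings, among them the fit without SNT replicate 1 (0.23, adjusted p = 0.0830). S100a14 (0.15 ± 0.16, or -0.042 without SNT replicate 1), S100a3, S100a5 and S100vp (0.17 ± 0.14) were not called.

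Of 5 measured genes for receptors of extracellular S100 proteins, with their co-receptor and adaptor, 4 rose after SNT and 0 fell. The shares over all 13215 genes were 19.9% called higher and 18.3% called lower. Ager, which encodes RAGE, gave 6.57, 6.58 and 6.68 in SNT ganglia, against 6.02, 6.22 and 6.27 in naive ganglia. The groups did not overlap and SNT replicate 1 was level with SNT replicate 2. This rise of 0.44 ± 0.09 (adjusted p = 0.0185) passed under all 15 alternative settings. Cd14, a co-receptor of Tlr4 that is also on the macrophage list, rose by 1.67 ± 0.27 (adjusted p = 0.00904) and the adaptor Myd88 by 0.93 ± 0.16 (adjusted p = 0.0102). Both were highest on SNT replicate 2 (8.55 and 8.14), as were all 11 macrophage markers, which rose with a median of 1.66. The partner genes Plat and Iqgap1 were highest there too. The part of macrophages in the values of the receptor group was not tested. Tlr4 gave 7.52, 8.24 and 8.29 in SNT ganglia, against 7.34, 7.39 and 7.59 in naive ganglia. SNT replicate 1 overlapped the naive arrays, and the rise of 0.58 ± 0.21 (adjusted p = 0.0951) passed under 8 of 15 alternative settings, with 0.83 without SNT replicate 1 (adjusted p = 0.00272). Bsg (basigin), a receptor of S100A9, was not called (-0.02 ± 0.08, adjusted p = 0.861; 0.16 with cyclic loess and 0.038 with quantile normalisation). Cd36 and the Tlr4 cofactor Ly96 were not measured.

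Annexins, which bind membranes and pair with S100 dimers, were measured for 4 genes, of which 2 rose and 1 fell. Anxa1, partner of S100A11, rose by 0.94 ± 0.23 (adjusted p = 0.0302) and Anxa11, partner of S100A6, by 0.40 ± 0.09 (adjusted p = 0.0233). Anxa6 fell by 0.37 (adjusted p = 0.0215). Anxa2, partner of S100A10, gave 11.85, 11.99 and 12.04 in SNT ganglia, against 12.03, 12.07 and 11.97 in naive ganglia, and was not called (-0.06, adjusted p = 0.610), as its partner was not. Its sign turned with quantile normalisation (0.04) and cyclic loess (0.12). Anxa1 did not pass once naive replicate 2 was left out (adjusted p = 0.106), nor did Anxa11 with each array centred on its median (adjusted p = 0.111).

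Of 12 other intracellular targets 4 rose and 6 fell. The part of sensory neurons or other cell types in these values was not tested. The targets of S100A1 in muscle included 2 that fell with it, the ryanodine receptor Ryr2 (-1.31 ± 0.22, adjusted p = 0.00948) and the calcium pump Atp2a2 (-0.27 ± 0.07, adjusted p = 0.0410), while phospholamban (Pln, 0.26) was not called. Atp2a2 passed under 10 of 15 alternative settings. It gave -0.15 after quantile normalisation (adjusted p = 0.217) and -0.13 after cyclic loess (adjusted p = 0.293), and missed the threshold with the replicate number as a block (adjusted p = 0.124), and also when naive replicate 1 was left out (adjusted p = 0.157) and when naive replicate 2 was (adjusted p = 0.145). Of the proteins released together with S100A13, Fgf1 fell by 0.65 (adjusted p = 0.0349) and Syt1, the synaptic vesicle calcium sensor, fell by 1.00 (adjusted p = 0.0129), but Il1a rose by 0.76 ± 0.12 (adjusted p = 0.00848). Fgf1 missed the threshold both when naive replicate 1 was left out (adjusted p = 0.120) and when naive replicate 2 was (adjusted p = 0.104). The Il1a cluster, like that of S100a8, is below the lower quartile of all clusters, with means of 4.35 in SNT and 3.59 in naive ganglia, and part of its value may be nonspecific signal. Cacybp, the calcyclin-binding protein, gave 9.92, 9.88 and 9.84 in SNT ganglia, against 10.74, 10.74 and 10.74 in naive ganglia. Arrays of each group were nearly level, and the change was -0.86 ± 0.07 (adjusted p = 0.00246), while S100a6 itself was not called. Sugt1, another S100A6 target, fell by 0.35 (adjusted p = 0.0417), but missed the threshold both when naive replicate 2 was left out (adjusted p = 0.144) and when naive replicate 3 was (adjusted p = 0.108). Myh9, the myosin target of S100A4, rose by 0.55 ± 0.13 (adjusted p = 0.0256), and liprin beta-1 (Ppfibp1, 0.35) was not called. Iqgap1, a scaffold protein, rose by 0.95 ± 0.20 (adjusted p = 0.0175) and the kinase Stk38, a target of S100B, by 0.37 ± 0.10 (adjusted p = 0.0443). Stk38 passed under 9 of 15 alternative settings, and did not pass with each array centred on its median (0.28, adjusted p = 0.183) or when any array other than SNT replicate 1 was left out (adjusted p = 0.104 to 0.143). Taken over all 4 groups, 11 of 30 measured partner genes rose and 10 fell (median 0.13), and 12 rose and 12 fell without SNT replicate 1.

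**Figure D4:**
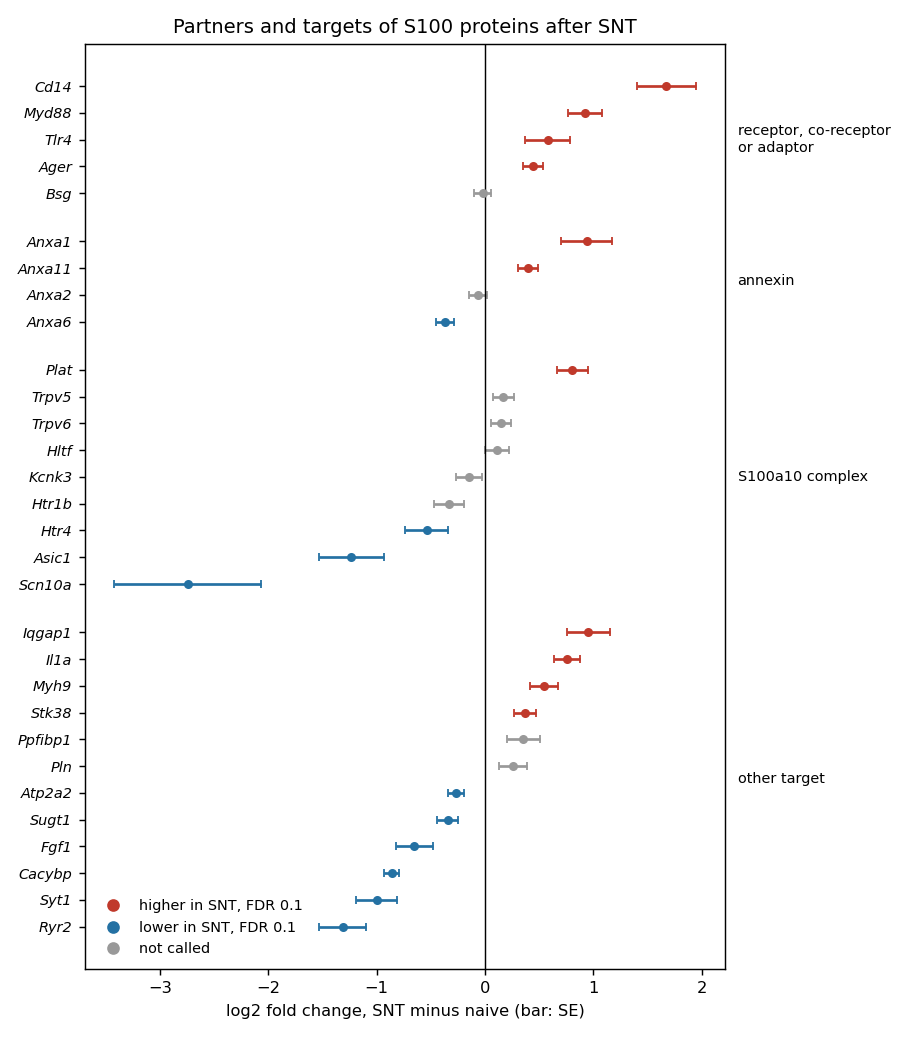
Log2 fold change (SNT minus naive, bar: standard error) of 30 measured partner and target genes of S100 proteins, grouped as receptors with their co-receptor and adaptor, annexins, the S100a10 complex with its cargo, and other targets; colour marks the call at FDR 0.1. The points run from Scn10a at -2.75 to Cd14 at 1.67, and Cd14, Myd88, Tlr4 and Ager of the uppermost group lie to the right of 0 as calls.

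The genes whose 6 values, each relative to the gene's own naive mean, came closest to those of a called member were listed by root mean square difference over the arrays, as a description only. For S100a4 these were Rai14 (0.0843), which stood at 8.09, 9.07 and 8.79 in SNT and 7.82, 7.49 and 7.91 in naive ganglia, and Slc4a7 (0.0987). Both were low on SNT replicate 1 among the SNT arrays, as S100a4 was. For S100b they were Ergic2 (0.0261) and Tm9sf2 (0.0276), for S100a1 Fam216a (0.0297) and Asns (0.0397), and for S100a13 Cfap20dc (0.0249) and Ehhadh (0.0335).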

How the data were processed

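L5 DRG of male Wistar rats were profiled on Affymetrix Rat Exon 1.0 ST arrays with 3 arrays per group. The values the authors deposited are log2 intensities of transcript clusters, made with oligo and robust multi-array average (RMA: background correction, quantile normalisation, median polish). Versions of both were not given in the sources used here. The probeset confidence level of the table is not stated, no background level was set, and median polish can compress large differences. Precision is limited by the number of arrays. RNA-seq of the same RNA was not analysed here.

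Groups followed the labels. By the platform annotation, 13327 clusters carried 1 symbol, 620 several and 5471 none, and 13232 of the first kind matched the RefSeq table (GRCr8). Where 1 gene had several clusters (102 genes), the brightest by mean was used. SNT was compared with naive by limma 3.58.1 (lmFit, eBayes, two-sided) in R 4.3.3, with Benjamini-Hochberg adjustment over 19418 clusters at FDR 0.1. Intervals are 95%, with 4 residual and 2.81 prior degrees of freedom. Data with 19418 clusters were simulated, of which only a small share was changed. Changes of 0.5, 1 and 2 on the log2 scale were recovered in 39.1%, 82.1% and 97.0% of cases. False calls made up 11.1% of calls. In the real data 32.1% of clusters were called, which makes the cut-off at the same FDR less strict, and these rates need not hold there.

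Members, marker and partner lists, and tests were chosen with earlier results of these data known. Genes named were all members and other S100 genes, partner genes, up to 4 genes with the smallest adjusted p of each marker list, neighbours in the gene order, the 2 most alike genes per called member, and Atf3. Defa5, Camp, Mmp8, Cd68, Itgam, Uchl1, Prph, Tubb3 and Fcnb were chosen after their values were seen. The 15 alternatives were a filter below the lower quartile (25%) of mean value, median centring, quantile normalisation, cyclic loess, the replicate number as a block, an intensity trend, array weights, the most variable cluster per gene, 1 cluster per gene, and leaving out each of the 6 arrays.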

Additional observations from a re-analysis of the deposited data

How the results depend on the processing

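Of 134 combinations of a measured S100 gene and an alternative setting, 118 kept direction and side of the threshold, 11 lost the call, 2 gained it and 3 turned the sign of an uncalled change. Centring each array on its median gave 1869 clusters higher in SNT, against 3367, and 0 S100 genes higher, against 1. Leaving out 1 array at a time gave 1643 to 3851 clusters higher and 1856 to 3226 lower, with the lowest counts without naive replicate 1, 0 to 1 S100 genes higher, and 6 to 12 partner genes lower, with 6 without naive replicate 2.

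Only uncalled values turned sign. Cyclic loess gave 0.080 for S100a10, 0.16 for Bsg, 0.12 for Anxa2 and -0.011 for Hltf. Quantile normalisation gave 0.038 for Bsg, 0.041 for Anxa2 and -0.0057 for Hltf, and median centring -0.019 for S100a16. Leaving out 1 array gave -0.0081 to 0.12 for S100a16, -0.042 to 0.26 for S100a14, -0.42 to 0.12 for S100a3, -0.14 to 0.071 for S100a5 and -0.073 to 0.012 for Bsg. The cause was not tested.

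Arrays with the same replicate number did not deviate together across clusters (r = -0.07, -0.15 and 0.05), and 0 of 6 arrays correlated best with their own number. With the replicate number as a block, 2380 clusters were higher and 2320 lower, 1 S100 gene was higher and 2 were lower (S100b lost, adjusted p = 0.107), and 11 partner genes were higher and 8 lower. The most variable cluster per gene could not differ from the brightest for members, which have 1 cluster each. S100a8 was left out by the filter on dim clusters and has no value there. With 3 arrays per group, a change of 0.5 was recovered in 39.1% of cases in simulation. Only a small share of clusters was changed there, whereas 32.1% were called in the data, so that this rate need not hold for the S100 genes.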
